A study of Mus musculus with 6 samples.

Results

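The cytosolic and mitochondrial chaperones examined here are 37 genes for Hsp70 and Hsp90 proteins, their cochaperones, the mitochondrial chaperonin and the CCT ring. They were selected by gene symbol, and all 37 were found among the 14788 symbols of the count table. RNA was sequenced from type-2 conventional dendritic cells (cDC2s), which take up antigen and show it chiefly to helper T cells, isolated from the spleens of C57BL/6 mice. There were 3 wild-type (WT) libraries and 3 libraries of Arhgef1-/- cells, called the knockout below, 6 in all. Arhgef1 is an exchange factor that activates the GTPase RhoA downstream of the G proteins G12 and G13. The labels do not give the animals' age or sex, the part of Arhgef1 that was deleted, whether it was deleted in all cells, how the cells were sorted, or whether the replicates came from separate animals. The spread on which the p-values rest may therefore be technical.

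Chaperones bind proteins that are not folded and keep them from aggregating. Hsp70 works with J-domain proteins, which deliver clients and start ATP hydrolysis, and with exchange factors of the Hsp110 and Bag families, which reset it. Hsp90 takes over clients such as kinases and steroid receptors, in a cycle set by its own cochaperones. Mitochondria have their own Hsp70, Hsp90 and chaperonin, while the CCT ring of the cytosol folds actin and tubulin. Under heat or other protein-damaging stress the transcription factor Hsf1 binds heat shock elements, repeats of GAA in alternating orientation, in the promoters of many of these genes.

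Total counts were 8408325 to 11714365 per library, and 11504 genes, all 37 chaperones among them, passed the filter on low counts. Levels are given as CPM, that is counts divided by the scaled library size and set to a common total. Fold changes are log2 values of knockout over WT from edgeR. Their SE was computed as the absolute log2 fold change over the square root of the F statistic of the edgeR test. A gene is said to have risen or fallen where the Benjamini-Hochberg adjusted p over all 11504 genes was under 0.05. The targeted gene stood at 287, 317 and 246 CPM in the WT libraries and 115, 128 and 144 CPM in those of the knockout (-1.13 ± 0.11, edgeR adjusted p = 6.96e-06), with no overlap between the groups. Of 18 tested markers of cDC2s and conventional dendritic cells 7 fell, against 4.58% of all genes tested. Sirpa (-0.32), Cd4 (-0.67), Clec4a4 (-0.40), Cd209a (-1.59), H2-Ab1 (-0.30), H2-Aa (-0.28) and H2-Eb1 (-0.45) fell, while Itgax (-0.16) and Irf4 (0.01) did not pass. Their part in the chaperone values was not tested. The marker Clec10a was nearly absent in both (0.390 and 0.278 CPM). All WT libraries came from lane 1 and all knockout libraries from lane 2 under another run name, per the labels, so lane and genotype cannot be told apart. Whether the lanes were of the same run is not stated.

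The promoter sequences are shown first, because several of the members hold a heat shock element there. Windows of 300 bases (250 before and 50 after an annotated start, RefSeq, GRCm38.p6) were found for 30 of the 37 genes. The other genes were Hspa8, Hsp90aa1, Hsp90ab1, Hspa9, St13, Cct4 and Hsf1. The element was searched as GAA, TTC and GAA in a row, with NN (2 bases of any kind) between one and the next, on both strands, and 5 of the 30 genes held it, against 0.662% of all 27025 genes in the table. They were Hsph1, Chordc1, Dnajb6 and the head-to-head pair Hspd1 and Hspe1. In the lines below the capitals mark this element, and the strand is that of the gene named.
Hsph1 (chr5:149636279-149636308, minus strand): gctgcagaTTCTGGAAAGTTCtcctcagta
Chordc1 (chr9:18292260-18292289, plus strand): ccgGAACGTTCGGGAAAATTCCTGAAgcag
Hspe1, shared with Hspd1 on the other strand (chr1:55088051-55088080, plus strand): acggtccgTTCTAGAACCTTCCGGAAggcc
Dnajb6 (chr5:29735844-29735873, plus strand): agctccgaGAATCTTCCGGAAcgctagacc
In Chordc1 the matches overlap and run on across the start site. The element of the pair begins 89 bases before the start of Hspe1, between that start and one of Hspd1 that lies 216 bases away on the opposite strand. In Hsph1 the match lies after the start, and in Dnajb6 it lies upstream of both RefSeq starts. In GENCODE the element of Dnajb6 falls within the first exon of a transcript that starts further upstream, and that of the chaperonin pair within the first exon of a longer Hspd1 transcript. The GENCODE gene Chordc1 also starts upstream of its printed stretch, at 18292125. RefSeq too has an Hspd1 start, at 55088243, that places the element of the pair after it.

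Hspa1a and Hspa1b, the stress-inducible Hsp70 pair, are shown for their likeness. Their 250 upstream bases were 98.8% identical. Capitals mark the shorter form of the element, GAANNTTC, and a CCAAT box on the other strand.
Hspa1a (chr17:34972157-34972276, minus strand): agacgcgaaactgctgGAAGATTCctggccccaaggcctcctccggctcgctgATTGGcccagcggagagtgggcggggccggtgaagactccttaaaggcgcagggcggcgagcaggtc
Hspa1b (chr17:34959239-34959358, minus strand): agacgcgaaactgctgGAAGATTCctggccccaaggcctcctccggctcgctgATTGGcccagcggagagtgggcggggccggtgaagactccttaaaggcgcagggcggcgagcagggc
GAANNTTC, which is part of the longer element, was present in 12 of the 30 genes against 9.04% of all genes, and TTCNNGAA, also part of it, in 8 of 30 against 9.60%. CCAAT on both strands was present in 15 of 30 against 41.1%. The likeness extends to the transcripts: 58.8% of the 50-base words of the Hspa1a transcripts also occur in Hspa1b, and 62.3% the other way. The counting could split or drop reads from these stretches, so the values of either gene are uncertain.

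Chaperone genes were mostly higher in the knockout, and the difference was uneven between its libraries. Of the 37 genes 12 rose, against 5.09% of all genes tested. They were the Hsp70 and Hsp110 genes Hspa8, Hspa4 and Hsph1, the J-domain gene Dnajb1, both Hsp90 genes, the Hsp90 cochaperone genes Stip1 and Fkbp4, the mitochondrial chaperonin gene Hspd1, and the CCT subunit genes Tcp1, Cct5 and Cct6a. Their log2 fold changes ran from 0.32 (Hsp90ab1, 1.25-fold) to 1.10 (Hsph1, 2.14-fold). By edgeR 0 of the 37 fell, against 4.58% of all genes. At an unadjusted p under 0.05, 22 of the 37 were higher and 2 lower, beside 2568 of 11504 genes in either direction. DESeq2 and limma-voom also gave 0 that fell, against 5.31% and 4.67% of all genes. Over the 37 genes the median log2 fold change was 0.34 and 34 were positive, beside a median of 0.00 and 50.1% positive over all genes tested. In 23 of the 37 every knockout library lay above every WT library, against 13.7% of all genes, and in 2 every knockout library lay below, against 13.5%.

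**Figure D1:**
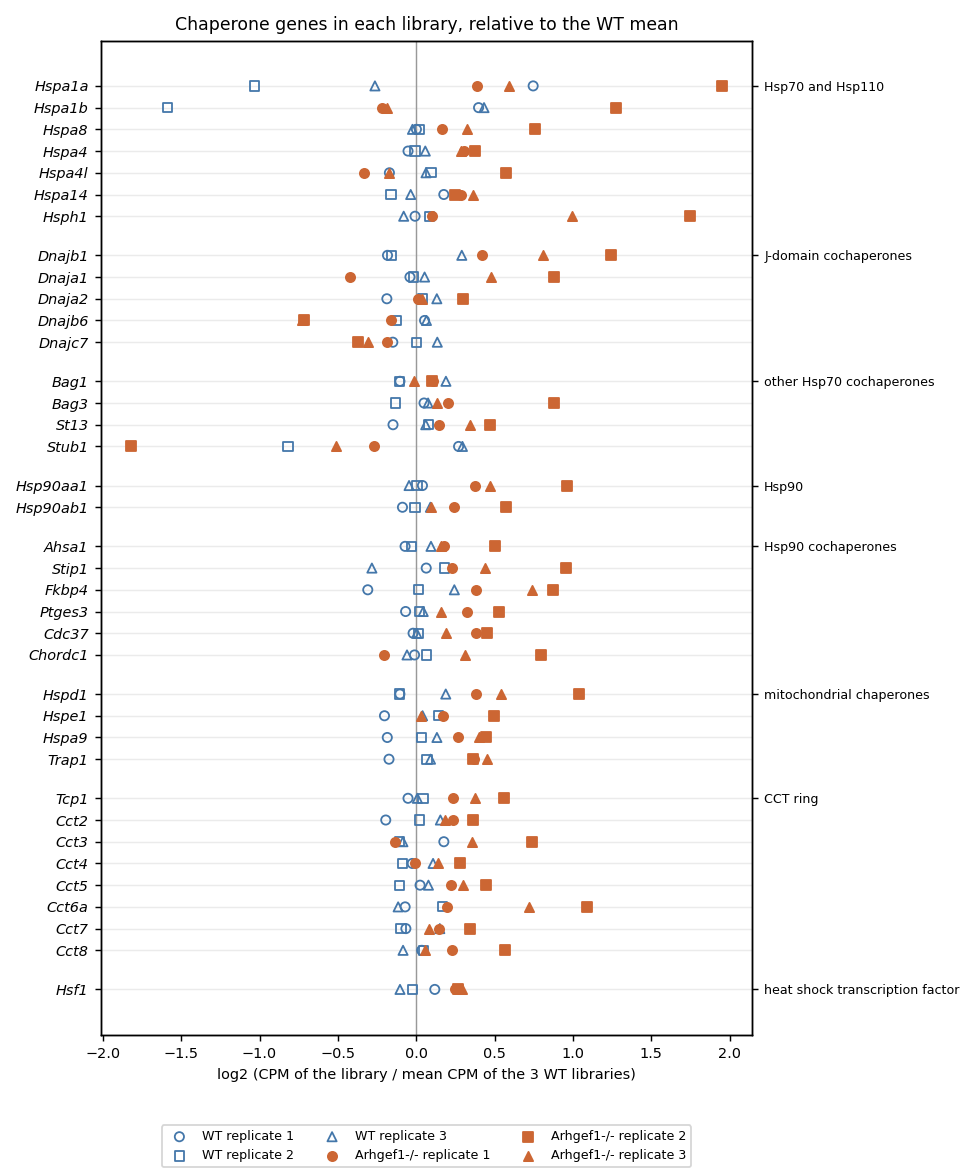
Level of each of the 37 chaperone genes in each library, as log2 of its CPM over the mean CPM of the 3 WT libraries, grouped by role. Open blue symbols are WT, filled orange symbols the knockout, and the symbol shape gives the replicate number. Knockout replicate 2 (squares) is the highest library for 30 of the 37 genes.

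Knockout replicate 2 stood apart in these genes. It held the highest of the 6 values in 30 of the 37, against 19.9% of all genes tested. Knockout replicate 1 was the lowest of the knockout libraries in 21 of the 37, against 32.4% of all genes. It was still above all WT libraries for 24 of the 37, against 30.7% of all genes. It was within the WT range for 7 and below all WT libraries for 6, against 39.4% and 29.9% of all genes. Knockout replicates 2 and 3 were above all WT libraries for 33 and 27, against 32.3% and 32.4% of all genes. Replicate 3 was within the WT range for 7 as well (35% of all genes). For WT replicates 1, 2 and 3 the 37 genes together took 0.413%, 0.438% and 0.459% of the counts, while for the same numbers of the knockout they took 0.515%, 0.666% and 0.523%. The summed share was thus higher in every knockout library than in every WT library, and highest in replicate 2. Among the knockout libraries the median coefficient of variation of the members was 17.0%, and among the WT libraries 9.57%, beside 15.4% and 13.3% over all genes tested. Without knockout replicate 2 only Dnajb1 and Hspa4 were called, 2 of the 37 against 2.71% of all genes. Without knockout replicate 3 there were 10 (3.55% of all genes), and without knockout replicate 1 there were 16 (4.94%), with 1 more that fell (4.15%). Without WT replicate 1 there were 5 (2.84%), without WT replicate 2 there were 8 (2.62%) and without WT replicate 3 there were 6 (3.24%). Of the 12 genes, 4 kept their call without WT replicate 1 and 6 without WT replicate 3.

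**Figure D2:**
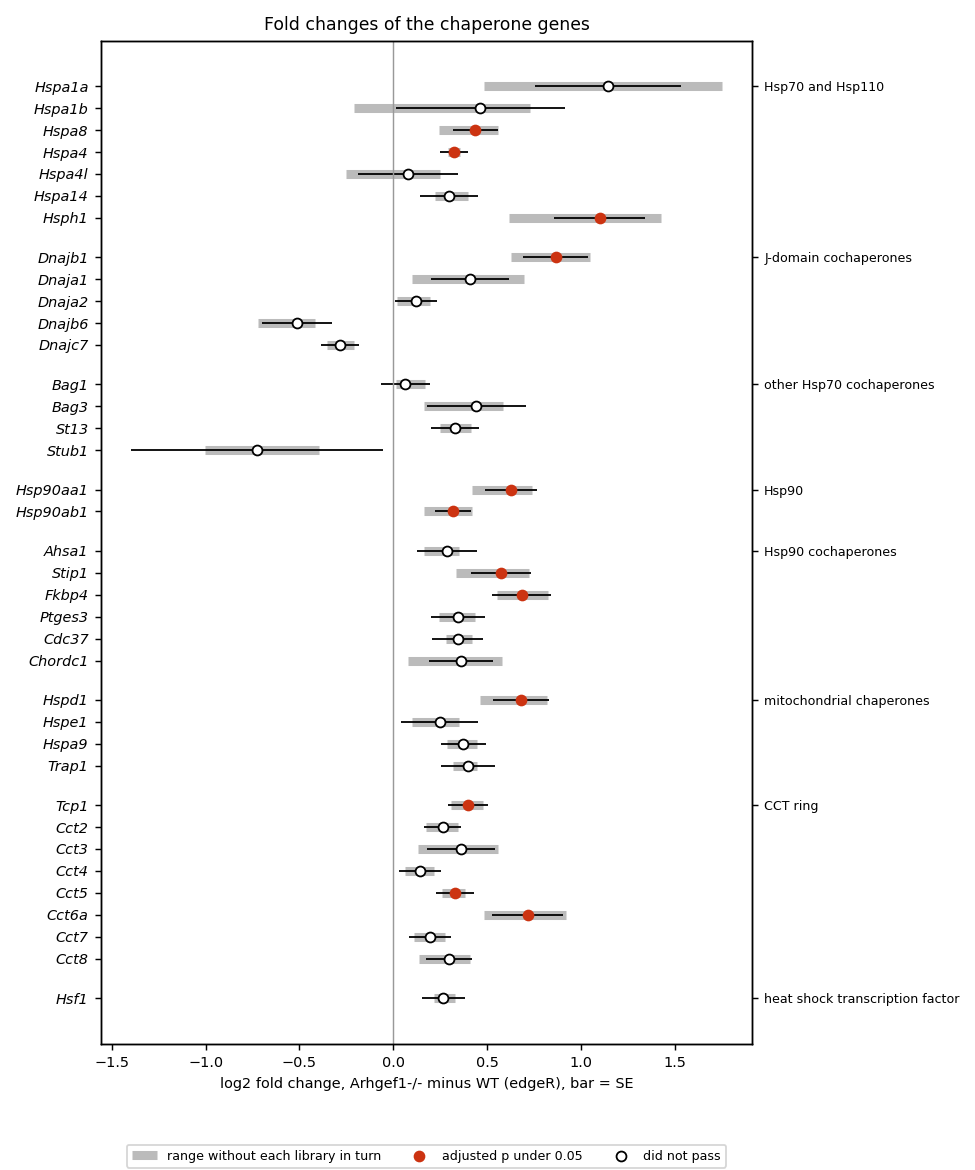
The log2 fold change (knockout over WT, edgeR) of each chaperone gene with its SE (black bar) and, in grey, the range of its values when each library was left out in turn. Filled red points passed the test and open points did not. The grey bars are widest for Hspa1a, from 0.48 to 1.75, and narrow for Hspa4, from 0.29 to 0.35.

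The Hsp70 family was led in level by the constitutive genes. Per kilobase of annotated exon, Hspa4, an Hsp110-type exchange factor, stood at 86.0 ± 3.31 CPM in WT and the main cytosolic Hsp70 gene Hspa8 at 50.6 ± 0.813 CPM (SD, n = 3). Hspa1a and Hspa1b stood at 4.68 ± 2.86 and 3.09 ± 1.78 CPM per kilobase, and Hspa4l, a relative of Hspa4, was the lowest at 1.22 ± 0.119. The annotated exons of Hspa8 overlap Snord14c, Snord14d and Snord14e on the same strand. Whether reads of Hspa8 were dropped there was not tested. Figures and orders per kilobase, here and below, depend on the annotated exon length merged over transcripts, which was 11.8 kb for Hspa4l. Without that division Hspa4l was not the lowest, with WT means of 14.3 CPM for Hspa4l, 13.9 for Hspa1a and 8.65 for Hspa1b. Hspa4 (chr11:53259814-53300457, minus strand, mm10) rose, with 458, 473 and 495 CPM in WT replicates 1, 2 and 3 and 586, 618 and 581 CPM in knockout replicates 1, 2 and 3 and a log2 fold change of 0.32 ± 0.08 (edgeR adjusted p = 0.0107). Its groups did not overlap and its knockout libraries differed little from each other. The call was lost without WT replicate 1 (0.30). For Hspa8 (chr9:40800984-40810087, plus strand) the values were 218, 221 and 214 CPM in WT replicates 1, 2 and 3 and 244, 367 and 272 CPM in knockout replicates 1, 2 and 3. All knockout libraries lay above the narrow WT range, with replicate 2 well above the rest (0.44 ± 0.12, edgeR adjusted p = 0.0254). Its call was lost without knockout replicate 2 (0.24) and without WT replicate 1 (0.44), 2 (0.45) or 3 (0.43).

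Among the 12 genes that rose, Hsph1 had the greatest fold change and the most uneven one. Hsph1 (chr5:149614287-149636376, minus strand), which encodes the Hsp110 exchange factor Hsp105, had 101, 108 and 96.4 CPM in WT replicates 1, 2 and 3 and 109, 342 and 203 CPM in knockout replicates 1, 2 and 3. Knockout replicate 1 was just above the WT libraries, replicate 3 about as high as the knockout mean, and replicate 2 far higher. The log2 fold change was 1.10 ± 0.24 (edgeR adjusted p = 0.00713). It was 0.62 without knockout replicate 2, when the call was lost, and DESeq2 did not call the gene (adjusted p = 0.101).

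The stress-inducible pair varied within both groups. Hspa1a had 23.3, 6.79 and 11.6 CPM in WT replicates 1, 2 and 3 and 18.2, 53.7 and 20.9 CPM in knockout replicates 1, 2 and 3. Both groups spread widely, with WT replicate 1 above knockout replicates 1 and 3, so that their ranges overlapped. The difference of 1.14 ± 0.39 did not pass (edgeR adjusted p = 0.0739). It passed without WT replicate 1 (1.75), without knockout replicate 1 (1.41) and with no filter on low counts (1.15). For Hspa1b the values were 11.4, 2.88 and 11.7 CPM in WT replicates 1, 2 and 3 and 7.45, 20.9 and 7.59 CPM in knockout replicates 1, 2 and 3, again overlapping, with a difference of 0.46 ± 0.45 (edgeR adjusted p = 0.608). The counts of the pair came to 15.9%, 4.38% and 10.9% of those of Hspa8 in the WT replicates in order, while in the knockout they came to 10.5%, 20.3% and 10.5%. The share was therefore highest in knockout replicate 2 and next highest in WT replicate 1. Hspa14, which encodes a ribosome-associated Hsp70, was at 35.8 ± 4.27 CPM across WT and 44.0 ± 1.77 CPM across knockout libraries (SD, n = 3; 0.30 ± 0.15, edgeR adjusted p = 0.264). Hspa4l was at 14.3 ± 1.40 CPM across WT and 15.1 ± 5.38 CPM across knockout libraries (0.08 ± 0.27, edgeR adjusted p = 0.908).

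**Figure D3:**
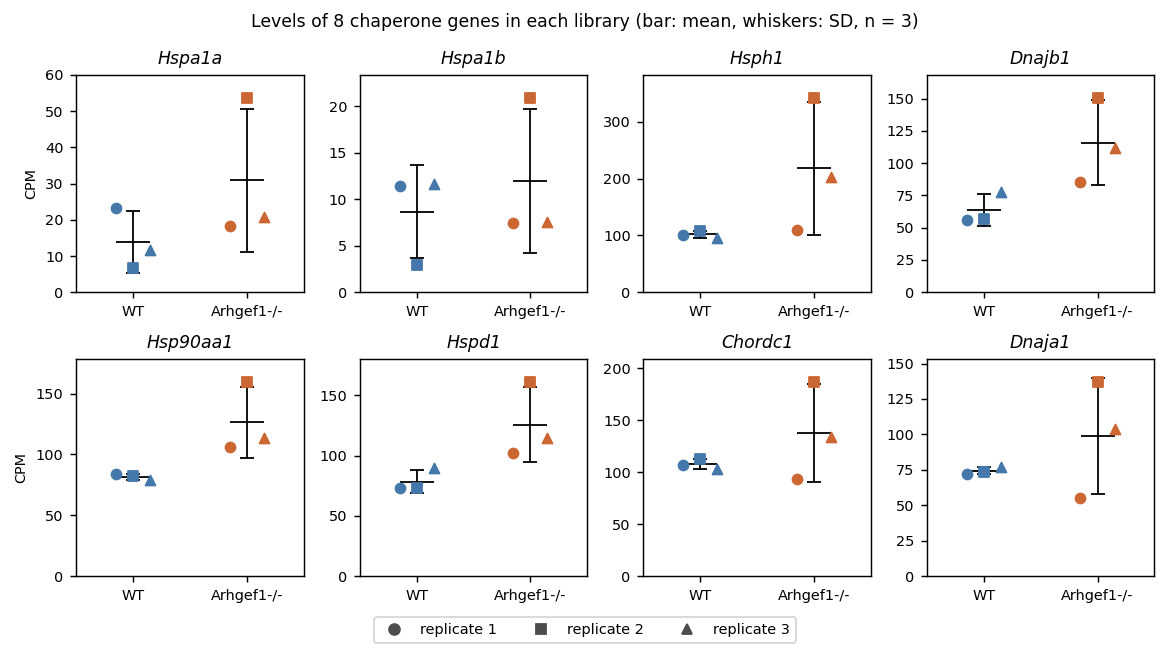
CPM of 8 chaperone genes in each library, on linear axes that start at 0. Symbols are replicates, horizontal bars the group means and whiskers the SD (n = 3 in each group). Knockout replicate 2 is the highest point in every panel, and in the panels of Chordc1 and Dnaja1 knockout replicate 1 lies below the WT libraries.

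The J-domain genes did not all go one way, and 1 of 5 rose. Dnajb1 (chr8:83608193-83612653, plus strand), the inducible Hsp40 that works with Hsp70 in stressed cells, had 56.1, 57.1 and 78.0 CPM in WT replicates 1, 2 and 3 and 85.3, 151 and 112 CPM in knockout replicates 1, 2 and 3. The groups did not overlap, and each knockout library was at least as high as 85.3 CPM while the highest WT library had 78.0 CPM. Dnajb1 rose by 0.87 ± 0.17 (edgeR adjusted p = 0.00363), and it was the one member called in each of the 6 fits that left out a library (0.63 to 1.05). Dnaja1, a farnesylated Hsp40, had 72.4, 73.7 and 77.3 CPM in WT replicates 1, 2 and 3 and 55.5, 137 and 104 CPM in knockout replicates 1, 2 and 3. Knockout replicates 2 and 3 lay above WT and replicate 1 below it, and the difference did not pass (0.41 ± 0.21, edgeR adjusted p = 0.254), except without knockout replicate 1 (0.70). Dnaja2 was at 142 ± 15.8 CPM across WT and 155 ± 17.5 CPM across knockout libraries (SD, n = 3; 0.12 ± 0.11, edgeR adjusted p = 0.582).

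Both members whose knockout libraries all lay below WT were J-domain genes. Dnajb6, an Hsp40 that keeps polyglutamine proteins from aggregating, had 37.5, 33.2 and 37.9 CPM in WT replicates 1, 2 and 3 and 32.4, 22.0 and 21.8 CPM in knockout replicates 1, 2 and 3 (-0.51 ± 0.19, edgeR adjusted p = 0.0962). It did not pass, but was called lower without knockout replicate 1 (-0.72). Dnajb6 holds the heat shock element printed above, as do Hsph1 (1.10), Hspd1 (0.68), Chordc1 (0.36) and Hspe1 (0.25), whose fold changes were positive. Of these Hsph1 and Hspd1 passed. The part of the element in these values was not tested. Dnajc7, which carries TPR repeats that bind both Hsp70 and Hsp90, had 187, 207 and 227 CPM in WT replicates 1, 2 and 3 and 182, 160.1 and 168 CPM in knockout replicates 1, 2 and 3 (-0.28 ± 0.10, edgeR adjusted p = 0.0835) and did not pass either. Per kilobase the J-domain genes of highest level in WT were Dnaja2 at 47.9 ± 5.32 CPM and Dnajc7 at 42.6 ± 4.17 CPM, which do not differ beyond their spread, and the lowest was Dnajb6 at 5.97 ± 0.434 CPM.

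Among the other cochaperones of Hsp70 by edgeR 0 of 4 genes passed, and St13 alone had an unadjusted p under 0.05; DESeq2 and limma-voom also called 0. St13, the Hsp70-interacting protein Hip, had 62.4, 72.9 and 72.1 CPM in WT replicates 1, 2 and 3 and 76.6, 95.7 and 87.6 CPM in knockout replicates 1, 2 and 3, so that all knockout libraries lay above WT (0.33 ± 0.13, edgeR adjusted p = 0.123). Bag3, a stress-induced exchange factor that directs clients to autophagy, had 12.2, 10.7 and 12.4 CPM in WT replicates 1, 2 and 3 and 13.5, 21.6 and 12.9 CPM in knockout replicates 1, 2 and 3. Knockout replicate 2 stood apart and the other knockout libraries lay just above WT (0.44 ± 0.26, edgeR adjusted p = 0.344). Bag1 overlapped between the groups at 65.7 ± 7.99 CPM across WT and 68.7 ± 3.09 CPM across knockout libraries (SD, n = 3; 0.07 ± 0.13, edgeR adjusted p = 0.83). Stub1, the ubiquitin ligase CHIP, had the lowest level of the 37 genes, with 5 to 23 counts per library, and its difference was imprecise (-0.73 ± 0.67, edgeR adjusted p = 0.582).

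Both Hsp90 genes rose. Hsp90ab1 (chr17:45567775-45573271, minus strand), the constitutive cytosolic Hsp90, was the most abundant of the 37 genes at 388 ± 24.1 CPM per kilobase in WT and 484 ± 85.4 in the knockout. Its values were 1096, 1158 and 1239.7 CPM in WT replicates 1, 2 and 3 and 1375, 1736 and 1240.5 CPM in knockout replicates 1, 2 and 3. Knockout replicate 3 was level with the highest WT library, so the separation of the groups was narrow (0.32 ± 0.10, edgeR adjusted p = 0.0455). The call was lost without knockout replicate 2 (0.16), without WT replicate 1 (0.28), 2 (0.31) or 3 (0.36), and with upper-quartile scaling (0.29). The inducible form Hsp90aa1 (chr12:110690605-110702728, minus strand) had 84.1, 82.1 and 79.3 CPM in WT replicates 1, 2 and 3 and 106, 159.6 and 113 CPM in knockout replicates 1, 2 and 3. The WT libraries lay close together and all knockout libraries were above them (0.63 ± 0.14, edgeR adjusted p = 0.00685). Without knockout replicate 2 the call was lost (0.42). Counts of Hsp90aa1 were 7.68%, 7.09% and 6.39% of those of Hsp90ab1 in the WT replicates in order, while in the knockout they were 7.71%, 9.19% and 9.14%. This share was just above the WT range in knockout replicate 1 and further above it in the other two.

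The Hsp90 cochaperones pointed the same way, with 2 of 6 past the test. Stip1 (chr19:7020702-7039967, minus strand), or Hop, which hands clients from Hsp70 to Hsp90, had 96.5, 105 and 75.8 CPM in WT replicates 1, 2 and 3 and 108, 179 and 125 CPM in knockout replicates 1, 2 and 3 and rose by 0.57 ± 0.16 (edgeR adjusted p = 0.0286). The lowest knockout value was just above the highest WT value. Its call was lost without knockout replicate 2 (0.33), WT replicate 1 (0.61) or WT replicate 3 (0.45). Fkbp4 (chr6:128429735-128438677, minus strand), the immunophilin FKBP52 of steroid receptor complexes, had 42.6, 53.3 and 62.5 CPM in WT replicates 1, 2 and 3 and 68.9, 96.9 and 88.3 CPM in knockout replicates 1, 2 and 3 and rose by 0.68 ± 0.16 (edgeR adjusted p = 0.00934). Here knockout replicates 2 and 3 were alike and replicate 1 nearer to WT. The call was lost without knockout replicate 2 (0.58) or WT replicate 1 (0.55).

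The remaining Hsp90 cochaperones did not pass. Ptges3, the cochaperone p23, was at 44.4 ± 1.80 CPM across WT and 56.5 ± 7.29 CPM across knockout libraries (0.35 ± 0.14, edgeR adjusted p = 0.151). Cdc37, which brings kinases to Hsp90, was at 48.4 ± 0.623 CPM across WT and 61.4 ± 5.72 CPM across knockout libraries (0.34 ± 0.13, edgeR adjusted p = 0.129). Ahsa1, which stimulates the Hsp90 ATPase, was at 33.8 ± 2.03 CPM across WT and 41.3 ± 5.75 CPM across knockout libraries (0.29 ± 0.16, edgeR adjusted p = 0.306). In these genes (SD, n = 3) every knockout library lay above every WT library. Chordc1, a CHORD-domain protein that binds Hsp90, had 107, 113 and 103 CPM in WT replicates 1, 2 and 3 and 93.1, 187 and 134 CPM in knockout replicates 1, 2 and 3 (0.36 ± 0.17, edgeR adjusted p = 0.217). Like Dnaja1 it was below WT in knockout replicate 1 and above WT in the other two, and it was called only without knockout replicate 1 (0.58). Per kilobase in WT the order ran from Stip1 (43.8 ± 7.02 CPM), over Ptges3 (20.0 ± 0.813) and Fkbp4 (18.9 ± 3.56), which do not differ beyond their spread, and Chordc1 (14.3 ± 0.633) to Ahsa1 (7.73 ± 0.465) and Cdc37 (5.90 ± 0.0760). This order rests on exon lengths such as 8.19 kb for Cdc37 and 2.22 kb for Ptges3. In CPM, as given above, Cdc37 was higher than Ptges3 and Ahsa1.

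In the mitochondrial group 1 of 4 genes passed. Hspd1 (chr1:55077835-55088243, minus strand), the chaperonin Hsp60, had 72.9, 72.9 and 89.3 CPM in WT replicates 1, 2 and 3 and 102, 161 and 114 CPM in knockout replicates 1, 2 and 3 and rose by 0.68 ± 0.15 (edgeR adjusted p = 0.00675). The groups did not overlap, and the call was lost without knockout replicate 2 (0.46). Its partner Hspe1 (chr1:55088132-55091307, plus strand), the Hsp10 lid of the chaperonin, had 17.2, 21.9 and 20.4 CPM in WT replicates 1, 2 and 3 and 22.3, 28.0 and 20.3 CPM in knockout replicates 1, 2 and 3, with overlapping groups (0.25 ± 0.21, edgeR adjusted p = 0.533). The pair is transcribed from the shared region printed above, and its annotated exons overlap on opposite strands, so reads there cannot be told apart without a stated strand setting. Counts of Hspd1 were 4.23, 3.33 and 4.38 times those of Hspe1 in the WT replicates in order, while in the knockout they were 4.56, 5.75 and 5.63 times. The ratio was higher in every knockout library than in every WT library. Hspa9, the mitochondrial Hsp70, was at 76.1 ± 8.37 CPM across WT and 98.5 ± 6.10 CPM across knockout libraries (SD, n = 3; 0.37 ± 0.12, edgeR adjusted p = 0.0595) and was called by DESeq2 (adjusted p = 0.0341) and with total-count scaling (0.40). Trap1, the mitochondrial Hsp90, was at 40.1 ± 3.96 CPM across WT and 52.7 ± 1.89 CPM across knockout libraries (0.40 ± 0.14, edgeR adjusted p = 0.0949). In both genes all knockout libraries lay above WT, and knockout replicate 2 did not stand apart.

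All 8 genes of the CCT ring had positive fold changes, from 0.14 to 0.72, and 3 passed. Tcp1 (chr17:12915701-12925067, plus strand), the alpha subunit, had 121, 129 and 126 CPM in WT replicates 1, 2 and 3 and 148, 185 and 163 CPM in knockout replicates 1, 2 and 3 and rose by 0.40 ± 0.11 (edgeR adjusted p = 0.0225). Cct5 (chr15:31590800-31601804, minus strand), the epsilon subunit, had 148, 135 and 154 CPM in WT replicates 1, 2 and 3 and 170.1, 198 and 179 CPM in knockout replicates 1, 2 and 3 and rose by 0.33 ± 0.10 (edgeR adjusted p = 0.0458). Cct6a (chr5:129786998-129846371, plus strand), the zeta subunit, had 33.3, 39.4 and 32.3 CPM in WT replicates 1, 2 and 3 and 40.2, 74.6 and 57.6 CPM in knockout replicates 1, 2 and 3 and rose by 0.72 ± 0.19 (edgeR adjusted p = 0.0219). In all 3 the groups did not overlap. In Cct5 the knockout libraries spread about as little as WT (coefficients of variation 7.94% and 6.57%). In Tcp1 they spread more than WT (11.4% and 3.35%), and in Cct6a knockout replicate 1 was level with WT. Tcp1 lost its call without knockout replicate 2 (0.31) or WT replicate 1 (0.37), 2 (0.42) or 3 (0.40). Cct6a lost its own without knockout replicate 2 (0.48) or 3 (0.72) or WT replicate 1 (0.68) or 3 (0.66). Cct5 kept its call only when knockout replicate 1 was the library left out, with values of 0.26 to 0.37 without each of the others, and lost it with upper-quartile scaling (0.30).

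The other CCT genes did not pass, and they fell into a pair of patterns. Cct2 (beta subunit) was at 268 ± 32.1 CPM across WT and 321 ± 20.6 CPM across knockout libraries (0.26 ± 0.10, edgeR adjusted p = 0.102) and Cct8 (theta) at 118 ± 5.80 CPM across WT and 145 ± 26.9 CPM across knockout libraries (0.30 ± 0.12, edgeR adjusted p = 0.148), each with all knockout libraries above WT (SD, n = 3). Overlapping groups were seen for Cct4 (delta; 0.14 ± 0.11), Cct7 (eta; 0.19 ± 0.11) and Cct3 (gamma; 0.36 ± 0.18). Cct3 had 55.6, 45.6 and 46.4 CPM in WT replicates 1, 2 and 3 and 44.8, 81.9 and 62.8 CPM in knockout replicates 1, 2 and 3, with knockout replicate 1 below WT, and was called without that library (0.56). Per kilobase, Cct2 was the most abundant CCT gene in WT at 105 ± 12.6 CPM and Cct3 the least at 7.72 ± 0.871 CPM, although the ring holds its subunits in equal number. These figures depend on the annotated exon length.

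**Figure D4:**
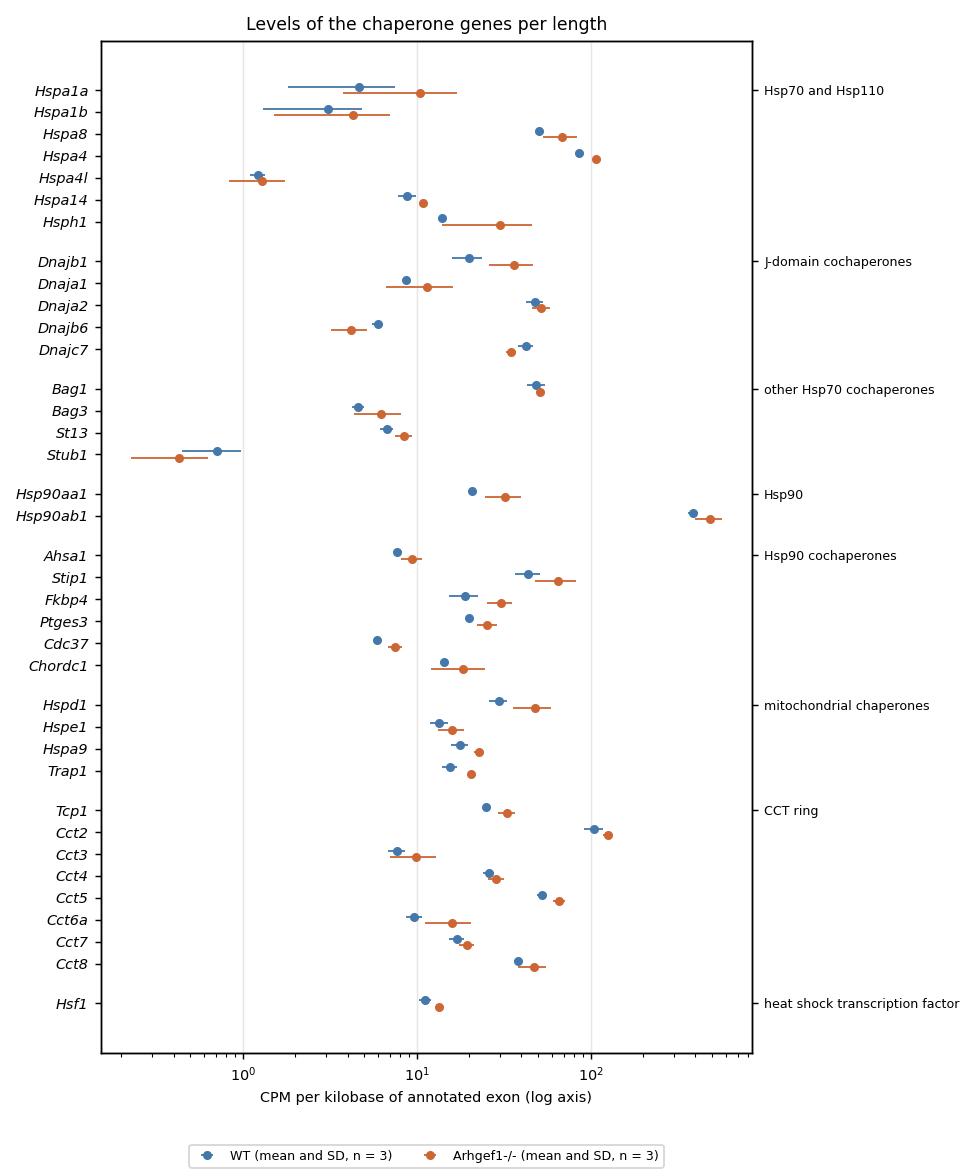
Level of each chaperone gene per kilobase of annotated exon, as the mean CPM per kilobase and SD (n = 3) in WT (blue) and the knockout (orange), on a log axis. Hsp90ab1 is the most abundant in both groups, followed by Cct2 and Hspa4, and Stub1 is the least abundant.

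Hsf1 (chr15:76477422-76501913, plus strand), the transcription factor of the heat shock response, had 86.4, 78.3 and 74.1 CPM in WT replicates 1, 2 and 3 and 94.3, 95.7 and 97.4 CPM in knockout replicates 1, 2 and 3. The knockout libraries were nearly equal and all above WT, and the difference did not pass (0.27 ± 0.11, edgeR adjusted p = 0.17). Knockout replicate 2, the highest library for most of the members, was not the highest for Hsf1. Of its relatives, Hsf2 was at 13.2 and 12.3 CPM in WT and knockout (-0.10 ± 0.29, edgeR adjusted p = 0.884). The regulator Hsbp1, which binds Hsf1, was at 93.0 and 104 CPM (0.16 ± 0.11, edgeR adjusted p = 0.421).

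The same measures were taken for other chaperone genes, listed by family. Of 100 genes in 8 lists 93 were in the table and 83 were tested. Of these 2 rose, against the 5.09% of all genes given above, and by edgeR 0 fell, against 4.58%. At an unadjusted p under 0.05, 4 of the 83 were lower, beside 2568 of 11504 genes in either direction. DESeq2 called 1 of the other chaperone genes lower and limma-voom 0. Their median log2 fold change was 0.04, and 47 of the 83 were positive. Dnajc9, a J-domain protein that also binds histones, had 45.1, 43.8 and 54.1 CPM in WT replicates 1, 2 and 3 and 75.5, 76.9 and 61.6 CPM in knockout replicates 1, 2 and 3 and rose by 0.58 ± 0.14 (edgeR adjusted p = 0.0149). Ruvbl2, an ATPase that acts with Hsp90 in assembling large complexes, had 40.2, 41.1 and 34.4 CPM in WT replicates 1, 2 and 3 and 53.7, 57.3 and 53.8 CPM in knockout replicates 1, 2 and 3 and rose by 0.51 ± 0.14 (edgeR adjusted p = 0.031). The Dnajc9 call was lost without knockout replicate 2 (0.52) or WT replicate 1 (0.54) or 2 (0.52). Ruvbl2 kept its call only when knockout replicate 1 was left out, with 0.43 to 0.55 without each of the others.

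By list, the medians of the other genes lay close to 0 in most families. They were 0.19 for 2 small heat shock proteins, 0.17 for 3 further Hsp70 and Hsp110 genes, -0.02 for 30 J-domain proteins, 0.04 for 17 Hsp90 cochaperones, 0.06 for 10 prefoldin subunits and CCT helpers, and -0.02 for 12 mitochondrial chaperones and proteases. The 7 further Hsp70 cochaperones had a median of 0.27. Among them Hspbp1, an exchange factor, had 3.83, 3.34 and 3.42 CPM in WT replicates 1, 2 and 3 and 3.96, 12.9 and 7.33 CPM in knockout replicates 1, 2 and 3 (1.19 ± 0.43, edgeR adjusted p = 0.0937) and was called without knockout replicate 1 (1.52). Dnajc28, a J-domain protein, was at 28.5 ± 6.10 CPM across WT and 17.5 ± 3.26 CPM across knockout libraries (SD, n = 3), with a difference of -0.70 ± 0.22 (edgeR adjusted p = 0.0503). It was the gene that DESeq2 called lower (adjusted p = 0.0342), and edgeR called it without WT replicate 1 (-0.86). The mitochondrial protease gene Lonp1 was at 24.0 and 16.4 CPM (-0.55 ± 0.21, edgeR adjusted p = 0.123). The iron-sulfur cochaperone gene Hscb was at 29.1 and 38.9 CPM (0.41 ± 0.19, edgeR adjusted p = 0.211). Prefoldin passes actin and tubulin to the CCT ring. Its subunit gene Pfdn5 was at 86.4 and 71.2 CPM (-0.28 ± 0.12, edgeR adjusted p = 0.191), and its subunit gene Pfdn6 (H2-Ke2 in the table) at 6.79 and 10.8 CPM (0.67 ± 0.32, edgeR adjusted p = 0.223), so that these differed in sign. In this list 5 of 10 genes were positive.

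**Figure D5:**
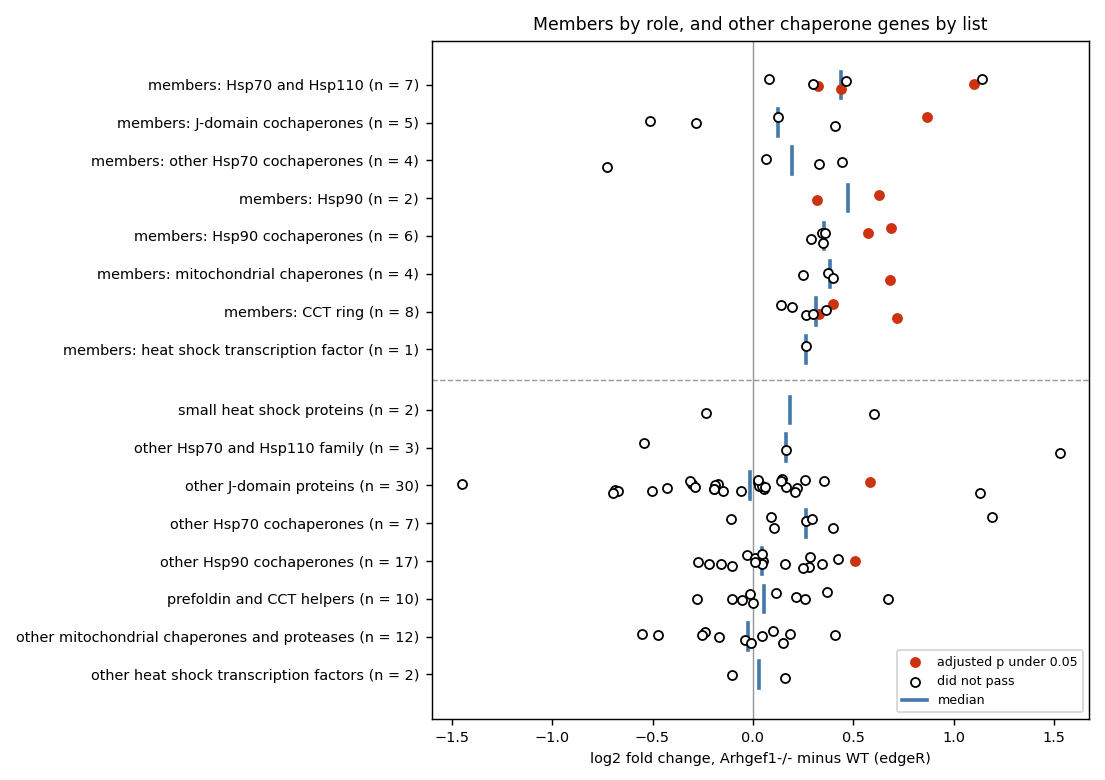
The log2 fold change (knockout over WT, edgeR) of each tested gene, by role for the 37 members (above the dashed line) and by family for 83 other chaperone genes (below it). Red points passed the test, open points did not, and blue bars are medians. All points of the CCT ring and of both Hsp90 groups lie to the right of 0, while the J-domain proteins outside the members spread to both sides.

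Other gene groups also differed between the same libraries, and their part in the chaperone values was not tested. Cell cycle genes rose in 29 of 30 cases, against 5.09% of all genes tested. Their summed level was 2472 to 2994 CPM in WT and 5082 to 5922 CPM in the knockout. It was highest in knockout replicate 2. Of 18 tested macrophage markers 14 fell, against 4.58% of all genes tested. The sum of the list was 816 to 1272 CPM in WT and 299 to 469 CPM in the knockout. Among the knockout libraries it was highest in replicate 1. No listed macrophage marker was at 0 in all libraries. In bulk RNA, fewer cells of a type and less RNA per cell cannot be told apart. Of 25 immediate early genes 6 fell, against 4.58% of all genes tested, and 1, Myc, rose, against 5.09%. The other 18 did not pass, and 9 of the 25 had positive fold changes. The summed level of the list was 7824 to 9292 CPM in WT. In knockout replicates 1, 2 and 3 it was 6913, 7333 and 7469 CPM. Immediate early genes and some heat shock genes can respond to tissue handling, and its part was not tested.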

How the data were processed

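Per the labels and the submitters' processing notes, the authors deposited raw counts of reads per gene symbol for 6 libraries, from STAR, HTSeq and DESeq2 on mm10. Tool versions, annotation, strand setting and the choice of symbols were not stated. Titles gave groups and replicate numbers. Counts were filtered (filterByExpr), scaled by TMM (factors 0.977 to 1.02) and tested by genotype with edgeR 4.0.16 (quasi-likelihood, R 4.3.3), with Benjamini-Hochberg adjustment over 11504 genes. The script was tested on simulated data. Gene positions and merged exon lengths came from GENCODE vM21 (mm10), promoters from RefSeq. Exons of 12 of the 37 genes, among them Hspd1, Tcp1 and Cct6a, overlap a gene on the opposite strand. Members, lists and tests were chosen with earlier results of these data known. Named were all members, up to 4 genes of smallest p per other chaperone list, Arhgef1, and, after their values were seen, the dendritic cell markers and Myc. Of the 100 other genes 2 matched an older symbol and 7 are not analysed here. Alternatives were other scalings and filters, the 50 most abundant genes left out (the member among them kept), DESeq2 1.42.0, limma-voom (limma 3.58.1), a replicate block, and each library left out.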

Additional observations from a re-analysis of the deposited data

How the results depend on the processing

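The sign of the log2 fold change was the same under all 4 scalings for all 37 genes, and the 12 calls were kept by limma-voom, with DESeq2 size factors, with total counts, with either other filter and without the 50 most abundant genes. DESeq2 kept 11 of them and upper-quartile scaling 10. The number of members that rose was between 2 and 16 when a library was left out, being 2 without knockout replicate 2, 5 without WT replicate 1 and 6 without WT replicate 3. The number that fell was between 0 and 1 (1 without knockout replicate 1). For the other chaperone genes the number that rose was between 0 and 3 with a library left out, 0 without knockout replicate 2 or WT replicate 2 and 1 without WT replicate 1 or 3. The number of these that fell was 1 in place of 0 with DESeq2 size factors, upper-quartile factors, no filter, the stricter filter (5 CPM in at least 3 libraries), DESeq2, and without WT replicate 1 (range 0 to 1 over the libraries left out). With a library left out the sign turned for 2 members and for 30 of the 83 other chaperone genes, 0 of them called. Among these were Hspa1b (from -0.21 without knockout replicate 2 to 0.73), Hspa4l (from -0.25 without knockout replicate 2 to 0.25, and -0.000115 without WT replicate 1), Hspb11 (from -0.92 to 0.0513 without knockout replicate 3) and Hsf2 (from -0.30 to 0.20 without WT replicate 1, and 0.02 without knockout replicate 2). The cause was not tested. With the replicate block 10 members rose (4.31% of all genes) and the calls of Hsp90ab1 (0.30) and Cct5 (0.33) were lost. Same-numbered libraries did not deviate together (correlations 0.04, -0.03 and -0.03), nor did the other pairs (-0.03 to 0.06). With 3 libraries per group this cannot settle whether the numbers pair the samples, and the labels do not state it. Of the members, Stub1 had the fewest counts (5 to 23 per library) and the greatest SE (0.67).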
